A study of Homo sapiens with 9 samples.

Results

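The genes described here are 10 genes of the YAP and TEAD pathway: the coactivators YAP1 and WWTR1 (the gene of TAZ), their DNA-binding partner TEAD1, the Hippo pathway components LATS2 and AJUBA, and the targets AMOTL2, CCN1, CCN2, ANKRD1 and AXL. They were taken by gene symbol, and all 10 were found among the 27421 genes of the deposited table. Poly(A) RNA of Huh7, an established human hepatocellular carcinoma line, was sequenced as strand-specific libraries to ask whether ZMAT2, a zinc finger protein of the spliceosome, acts on this cancer through mRNA splicing. The 9 libraries form 3 groups of 3, all from Huh7 without a further genotype in the labels: a control, and the arms shzmat2-1 and shzmat2-2, in which ZMAT2 was targeted. What the control received, the hairpin sequences, the time after treatment and whether a library came from its own culture are not given in the sources used here. The p-values therefore measure only the spread between these libraries, which may be technical. The values are FPKM, that is fragments per kilobase of a transcript after correction for library depth, so levels may be set side by side between genes but isoforms were not measured. In bulk RNA, fewer cells of a type and less RNA per cell cannot be told apart.

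The Hippo pathway is a kinase cascade in which STK3 and STK4 (MST2 and MST1) activate LATS1 and LATS2, which phosphorylate YAP1 and TAZ and keep them out of the nucleus. When the cascade is low, YAP1 and TAZ enter the nucleus, bind TEAD1 to TEAD4 and raise transcription of genes such as CCN1, CCN2, ANKRD1, AMOTL2 and LATS2, the last of which feeds back on the pathway. In the liver the pathway restrains organ size, and YAP1 is often active in hepatocellular carcinoma. YAP1 is mostly controlled through phosphorylation, location and protein stability, none of which RNA levels show.

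The promoters were read for the core of the TEAD binding site, CATTCC, on both strands (GGAATG is the same site on the other strand), since TEAD is how YAP1 and TAZ reach these genes. RefSeq windows of 250 bases before the start (GRCh38.p14) were found for 8 of the 10 genes, in 12 windows, and CCN1 and TEAD1 were not matched. Of the 12 windows 6 held the core, against 11.89% of the 35116 windows of the whole table. Some of these 6 lie inside genes or over exons, as given below. The difference is therefore not read as an enrichment at promoters. CCN2 held the core 3 times, which 0.08258% of all windows did. The window is shown because the matches stand close together, at 169, 104 and 95 bases before the start (chr6:131951374-131951622, minus strand, 249 bases written 5′ to 3′ towards the gene, TEAD core in capitals).
CCN2: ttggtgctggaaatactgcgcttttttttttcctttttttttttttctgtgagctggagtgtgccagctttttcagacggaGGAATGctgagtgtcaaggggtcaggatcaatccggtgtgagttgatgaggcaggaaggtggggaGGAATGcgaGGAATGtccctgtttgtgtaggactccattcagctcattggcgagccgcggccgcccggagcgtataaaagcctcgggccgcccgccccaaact

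ANKRD1 held the core 2 times, which 0.9397% of all windows did at least, at 220 and 128 bases before its start. AMOTL2, AJUBA and AXL held it once, in the window of the second of their 2 listed starts, and YAP1 held it once. These second starts differ from the deposited gene start by -1032, -5709 and 7532 bases, inside the gene on its strand each time. The windows of the first starts of AMOTL2, AJUBA and AXL held no core. The longest exon overlap of the windows with a core was 250 bases for AJUBA and YAP1, 189 for ANKRD1 and 147 for AMOTL2. It was 1 base for CCN2 and 0 for AXL. The sites of ANKRD1, AMOTL2, YAP1, AJUBA and AXL are shown with 9 bases on each side, in the direction of the gene, to let the flanks be compared. A match is a string of letters, not a bound site.
ANKRD1, chr10:90921293-90921316, minus strand: accaccaaaGGAATGgccctctca
ANKRD1, chr10:90921201-90921224, minus strand: actgagtctGGAATGaaaattcac
AMOTL2, chr3:134374502-134374525, minus strand: aaactctcaCATTCCtggcatagc
YAP1, chr11:102110276-102110299, plus strand: gagtgtgcaGGAATGtagcaactt
AJUBA, chr14:22976887-22976910, minus strand: aagttggctGGAATGaagccaaag
AXL, chr19:41226534-41226557, plus strand: actttgcacCATTCCactccctcc

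The window of LATS2 and both of WWTR1 did not hold these letters. The AP-1 site, searched as TGANTCA on both strands, was found in 1 of the 12 windows, at 195 bases before the start of ANKRD1, against 6.573% of all windows. The SRF CArG box was found in none of the 12, against 1.159% of all windows.

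ZMAT2 was lower in all 6 knockdown libraries, at 37.6% of the control mean in shzmat2-1 and 57.7% in shzmat2-2, of which the first passed the threshold of 0.05 and the second did not (limma adjusted p = 0.028 and 0.11). The first call was kept without control replicate 2 and lost without any other library. All 12 hepatocyte and Huh7 markers had at least 1 FPKM in at least 3 libraries, with ALB highest, at up to 2571 FPKM. Depth was 18430000 to 23740000 fragments, so that 3 fragments on a transcript of 1 kb equal 0.126 to 0.163 FPKM. The 13 mitochondrially encoded genes took 7.86% and 8.28% of the fragments in control replicates 1 and 3 but 43.2% in control replicate 2. They took 7.70% to 16.4% in shzmat2-1 and 14.5% to 27.0% in shzmat2-2. Control replicate 2 stands apart: its level was a median of 56.63% of the mean of the other controls over the 11245 tested genes, and it was below both of them for 85.5% of these genes and for 9 of the 9 tested YAP and TEAD genes. The main results below are therefore also given without that library and after scaling each library to the sum of its nuclear genes, called nuclear scaling.

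CCN1 and ANKRD1 rose in the knockdown libraries, and no other of these genes passed the test. Tests used limma on log2(FPKM + 1), which understates the change of low genes, with Benjamini-Hochberg adjustment over the 11245 genes that had at least 1 FPKM in at least 3 libraries, and a gene was called at an adjusted p under 0.05. AXL fell below that minimum and 9 were tested. With both arms averaged and set against the control, 2 of 9 were called, both higher, where 0.542% of all genes tested were called (0.454% higher). In shzmat2-2 the same 2 were called, against 0.587% of all genes. In shzmat2-1 none of 9 was called, against 0.08% of all genes, and 3 (CCN1, ANKRD1 and AMOTL2) had an unadjusted limma p under 0.05, which 5.76% of all genes had. The arms share their control libraries, so calls in both are not independent.

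**Figure D1:**
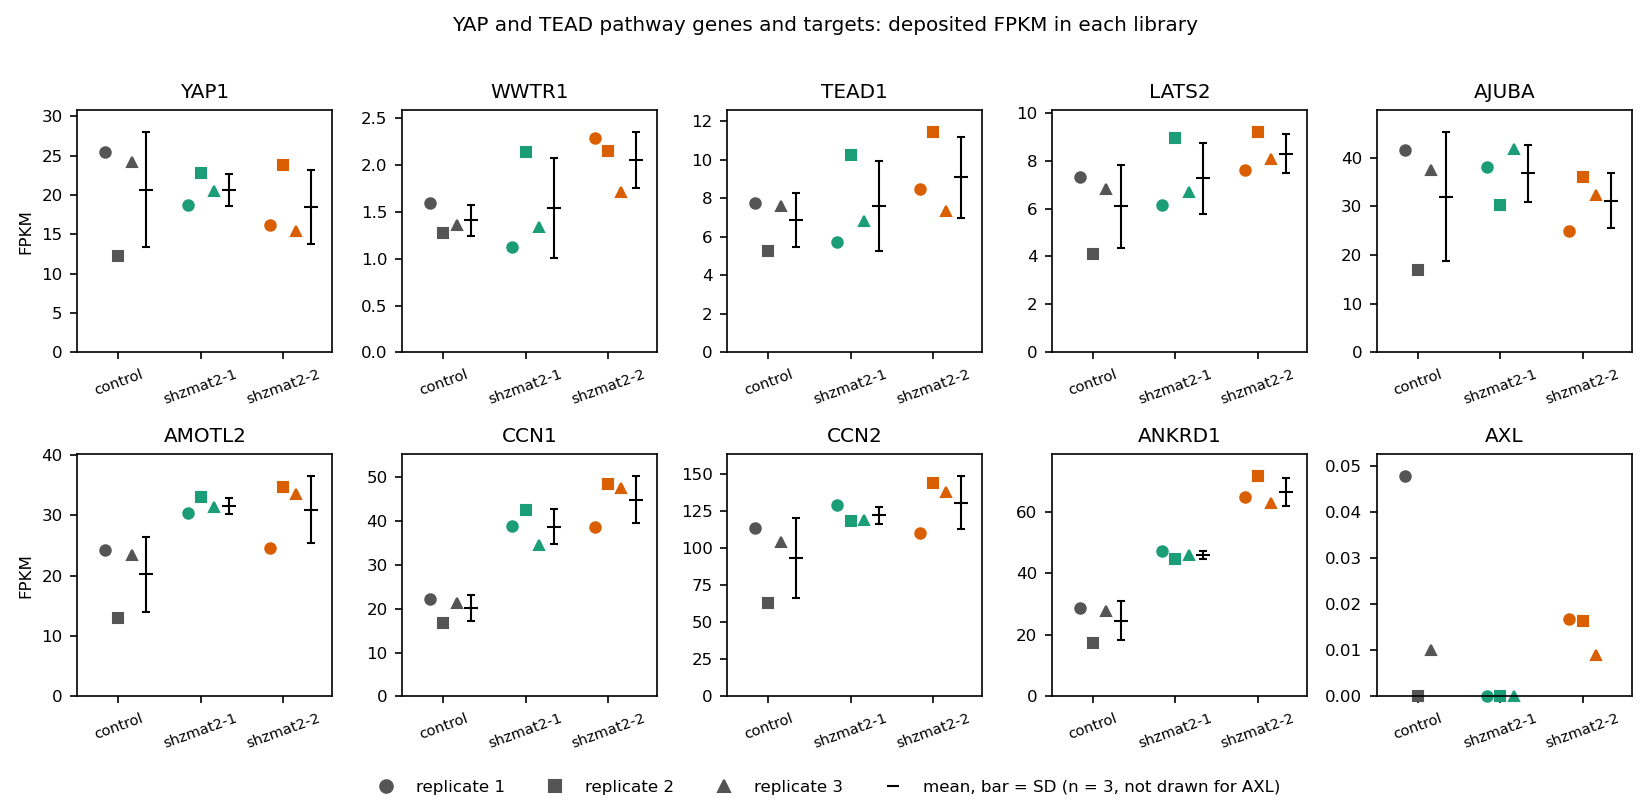
Deposited FPKM of the 10 genes in each of the 9 libraries (symbols are replicates, colours are groups, bars are mean ± SD of 3 libraries, each vertical axis starts at 0). The 6 knockdown libraries lie above all controls for CCN1, ANKRD1 and, by a small margin, AMOTL2, and control replicate 2 is the lowest control in every panel. The values of AXL are at most 0.0477 FPKM.

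Among the coactivators, YAP1 (ENSG00000137693, chromosome 11, 102110447 to 102233424) had 25.5, 12.2 and 24.2 FPKM in control replicates 1, 2 and 3. It had 18.8, 22.8 and 20.5 FPKM in shzmat2-1 and 16.2, 23.8 and 15.4 FPKM in shzmat2-2. The groups overlapped, and the lowest value of the 9 was that of control replicate 2. The log2 fold change in the mean of both arms was -0.02, with a 95% interval of -0.58 to 0.53 (limma adjusted p = 1.0). A rise or fall within that interval cannot be told from no change here. The interval does not mark the smallest change that the adjusted test would call, and larger changes could also be missed. With nuclear scaling the log2 fold change was -0.13.

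WWTR1 (ENSG00000018408, chromosome 3, 149517235 to 149736714), which encodes TAZ, was the lowest of the tested genes. Its levels were 1.60, 1.28 and 1.36 FPKM in the control, 1.13, 2.14 and 1.34 FPKM in shzmat2-1, and 2.29, 2.15 and 1.71 FPKM in shzmat2-2. The shzmat2-2 libraries were all above the controls, while those of shzmat2-1 lay on both sides of them. The share of all genes with shzmat2-2 fully above the controls was not counted. The estimate for shzmat2-2 was 0.34 on the log2 scale (limma adjusted p = 0.82), and the one for shzmat2-1 was 0.06 (limma adjusted p = 0.91), where nuclear scaling turned it to -0.08. YAP1 exceeded WWTR1 in every library, with mean ratios of FPKM of 14.4 ± 4.31, 14.2 ± 3.13 and 9.04 ± 2.00 in control, shzmat2-1 and shzmat2-2 (SD, n = 3 each).

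TEAD1 (ENSG00000187079, chromosome 11, 12674421 to 12944737), a transcription factor that carries YAP1 and TAZ to DNA, had 7.74, 5.23 and 7.57 FPKM in the control. It had 5.73, 10.2 and 6.81 FPKM in shzmat2-1 and 8.47, 11.4 and 7.35 FPKM in shzmat2-2. The groups overlapped, and replicate 2 was the highest library in both arms and the lowest control. The log2 fold change in the mean of both arms was 0.24 (95% interval -0.24 to 0.71, limma adjusted p = 1.0), and -0.03 without control replicate 2 and shzmat2-1 replicate 2. TEAD1 made up 14.3% ± 0.514, 12.9% ± 3.71 and 17.7% ± 4.26 of the summed FPKM of TEAD1 to TEAD4 in control, shzmat2-1 and shzmat2-2 (SD, n = 3 each).

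LATS2 (ENSG00000150457, chromosome 13, 20973036 to 21061586), the kinase that phosphorylates YAP1 and is itself a YAP target, had 7.34, 4.11 and 6.82 FPKM in the control. It had 6.16, 8.95 and 6.67 FPKM in shzmat2-1 and 7.61, 9.19 and 8.07 FPKM in shzmat2-2. All shzmat2-2 libraries were above the controls, and 2 of the shzmat2-1 libraries lay among them. As for WWTR1, the share of all genes with shzmat2-2 fully above the controls was not counted. For shzmat2-2 the log2 fold change was 0.42 and for shzmat2-1 it was 0.24, and neither passed (limma adjusted p = 0.87 and 0.81).

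AJUBA (ENSG00000129474, chromosome 14, 22971177 to 22982551), a LIM domain protein that restrains LATS kinases, had 41.6, 17.0 and 37.5 FPKM in the control. It had 38.1, 30.4 and 41.8 FPKM in shzmat2-1 and 25.0, 36.1 and 32.4 FPKM in shzmat2-2. The groups overlapped, and the lowest levels were those of the libraries with the highest mitochondrial shares, control replicate 2 and shzmat2-2 replicate 1. Pearson's r between log2(FPKM + 1) of AJUBA and the log2 mitochondrial sum over the 9 libraries was -0.97, the most negative of the 9 tested genes, followed by YAP1 at -0.77. It was -0.60 for CCN2, -0.56 for AMOTL2, -0.34 for LATS2, -0.14 for ANKRD1, -0.12 for CCN1, -0.085 for TEAD1 and 0.32 for WWTR1. Both measures of each r come from the same library, and a larger mitochondrial share leaves fewer fragments for every other gene, so these r are a description, and their part in the results was not tested.

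**Figure D2:**
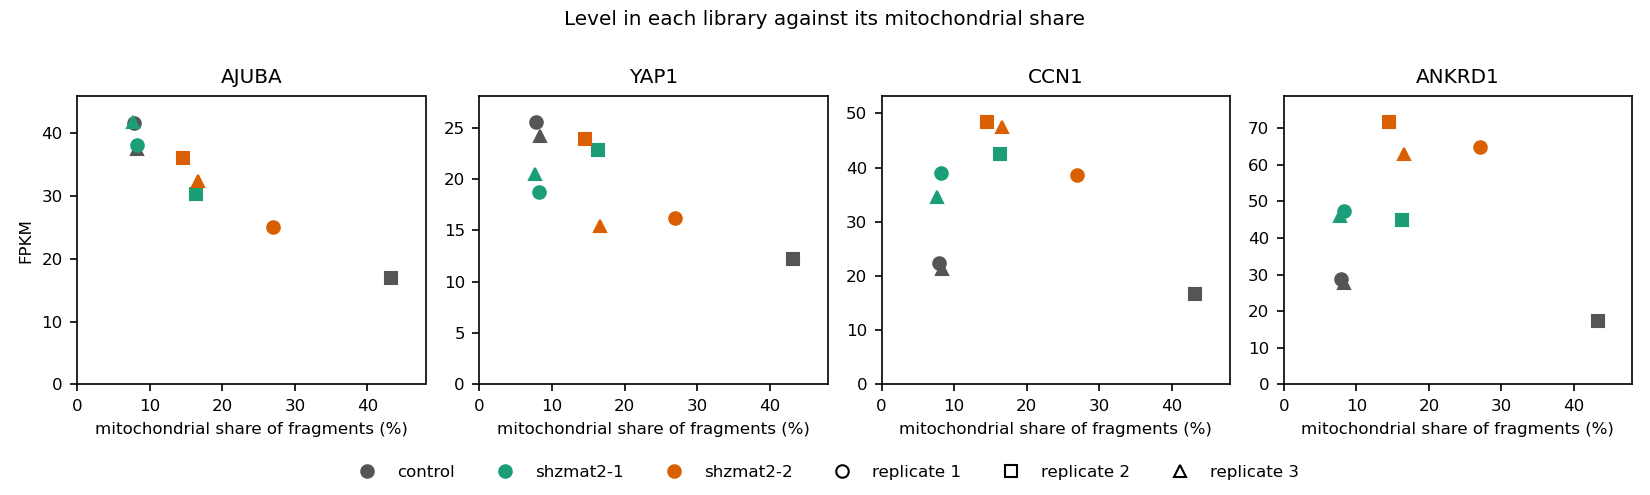
FPKM of AJUBA, YAP1, CCN1 and ANKRD1 (vertical axes from 0) against the mitochondrial share of each library in percent, with colours for groups and symbols for replicates. AJUBA steps down from libraries near 8% to control replicate 2 at 43.2%, while at shares of 7.70% to 8.28% the CCN1 and ANKRD1 points of shzmat2-1 stand above those of the control.

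AMOTL2 (ENSG00000114019, chromosome 3, 134355347 to 134375479), an angiomotin family protein that binds YAP1 and is transcribed under it, had 24.2, 13.0 and 23.4 FPKM in the control. It had 30.4, 33.0 and 31.3 FPKM in shzmat2-1 and 24.5, 34.6 and 33.5 FPKM in shzmat2-2. All 6 knockdown libraries were above the 3 controls, although shzmat2-2 replicate 1, with a mitochondrial share of 27.0%, exceeded control replicate 1 only narrowly. The log2 fold change in the mean of both arms was 0.65 (SE 0.22, limma adjusted p = 0.46), which missed the threshold. The control SD was 6.25 FPKM around a mean of 20.2, and 0.535 around 20.9 after nuclear scaling, where the log2 fold change was 0.54 (limma adjusted p = 0.083). AMOTL2 was called in 2 settings, median-of-ratios scaling (limma adjusted p = 0.037) and the mitochondrial covariate (limma adjusted p = 0.0064).

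CCN1 (ENSG00000142871, chromosome 1, 85580761 to 85584589), a secreted matricellular protein and an early YAP target, had 22.3, 16.8 and 21.3 FPKM in the control. It had 39.0, 42.6 and 34.6 FPKM in shzmat2-1 and 38.7, 48.4 and 47.5 FPKM in shzmat2-2. Every knockdown library was above every control, with a lowest value of 34.6 FPKM against a highest control of 22.3. CCN1 rose by a log2 fold change of 1.02 in the mean of both arms (SE 0.17, limma adjusted p = 0.033) and by 1.12 in shzmat2-2 alone (SE 0.20, limma adjusted p = 0.040). For shzmat2-1 the estimate of 0.91 missed the threshold (SE 0.20, limma adjusted p = 0.19).

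ANKRD1 (ENSG00000148677, chromosome 10, 90912096 to 90921087), an ankyrin repeat protein of muscle and a classic YAP target in other cells, had 28.8, 17.4 and 27.6 FPKM in the control. It had 47.3, 44.8 and 46.0 FPKM in shzmat2-1 and 64.9, 71.6 and 62.8 FPKM in shzmat2-2. The 3 groups did not overlap: shzmat2-1 lay above the control and shzmat2-2 above both. The share of all genes with this order of the groups was not counted, so the order is not read as particular to ANKRD1. ANKRD1 rose by a log2 fold change of 1.17 in the mean of both arms (SE 0.19, limma adjusted p = 0.029) and by 1.43 in shzmat2-2 alone (SE 0.22, limma adjusted p = 0.023). For shzmat2-1 the estimate of 0.91 missed the threshold (SE 0.22, limma adjusted p = 0.27).

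Among all tested genes, the estimates in the mean of both arms put CCN1 at the 99.6th percentile and ANKRD1 at the 99.8th. Both calls held without control replicate 2, with log2 fold changes of 0.90 for CCN1 (limma adjusted p = 0.021) and 0.94 for ANKRD1 (limma adjusted p = 0.0084). Without any 1 of the other 8 libraries neither was called in the mean of both arms. The highest limma adjusted p over these fits was 0.15 for CCN1 and 0.12 for ANKRD1. In shzmat2-2 both were called without control replicate 2, ANKRD1 alone without shzmat2-1 replicate 2, and neither without any other library. Rescaled to an equal sum per library (TPM), which counts the mitochondrial genes in the sum, neither was called, with log2 fold changes of 1.15 and 1.29 (limma adjusted p = 1.0 for both).

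CCN2 (ENSG00000118523, chromosome 6, 131948176 to 131951372), the connective tissue growth factor and the most used YAP reporter gene, was the most abundant of the 10. It had 113, 62.8 and 104 FPKM in the control, 129, 118 and 119 FPKM in shzmat2-1, and 110, 144 and 138 FPKM in shzmat2-2. Here 5 of the 6 knockdown libraries were above all controls, and shzmat2-2 replicate 1 lay below control replicate 1. The log2 fold change in the mean of both arms was 0.47 (95% interval -0.03 to 0.97, limma adjusted p = 0.79). Without control replicate 2 it was 0.21 (limma adjusted p = 0.47), and with nuclear scaling 0.35 (limma adjusted p = 0.23).

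AXL (ENSG00000167601, chromosome 19, 41219223 to 41261766), a receptor tyrosine kinase that YAP raises in many cancer cells, was close to undetected. Its values were 0.0477, 0 and 0.0101 FPKM in the control, 0 in each shzmat2-1 library, and 0.0168, 0.0164 and 0.0089 FPKM in shzmat2-2. With the recovered depths and the exon length in GENCODE release 29 these correspond to 11 fragments over the 9 libraries, and to no more than 5 in any 1 of them, so no difference in AXL was detectable at this depth. The 9 tested genes rested on 175 (WWTR1) to 7972 (CCN2) fragments in a library.

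**Figure D3:**
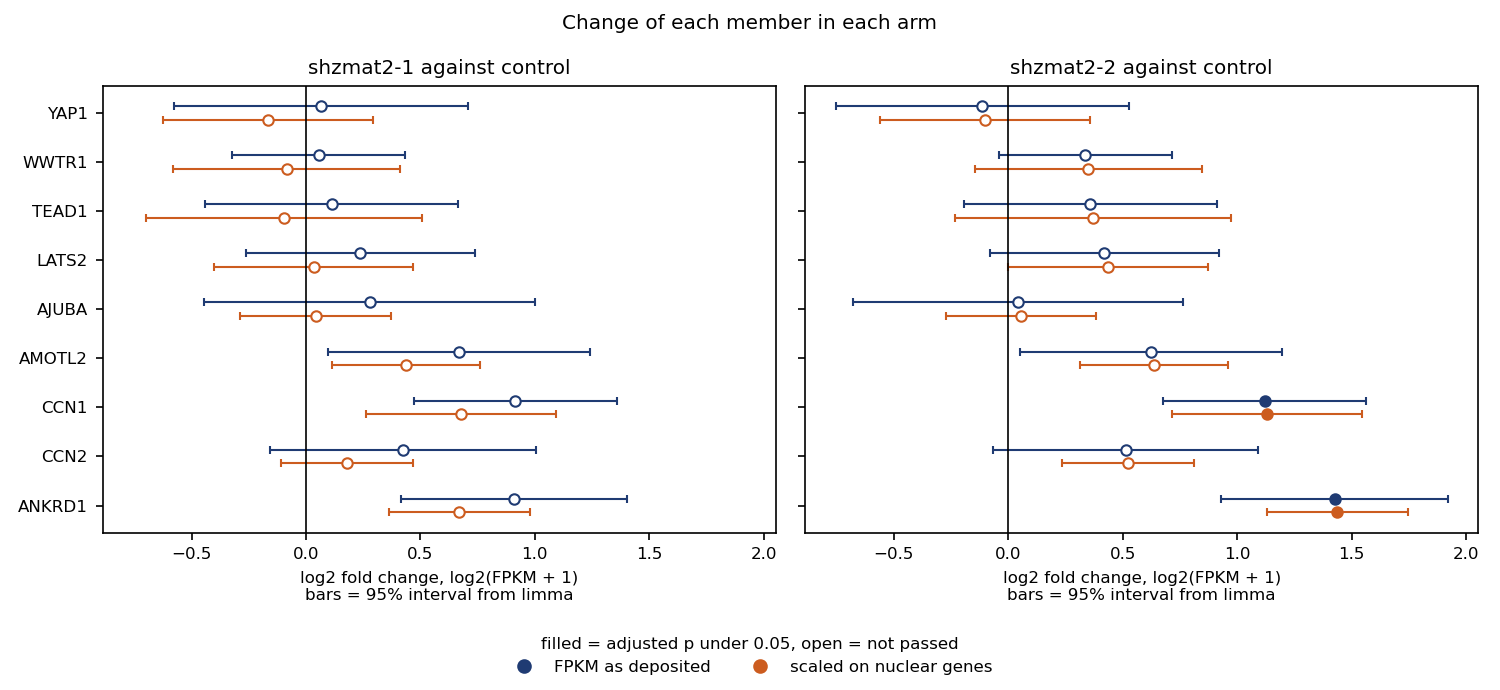
Log2 fold change with its 95% interval from limma (horizontal axis, log2(FPKM + 1) scale) of the 9 tested genes in each arm against the control, from FPKM as deposited (blue) and after nuclear scaling (orange), with filled points for an adjusted p under 0.05. CCN1 and ANKRD1 are filled in shzmat2-2 on both scales, and the intervals of YAP1, TEAD1 and WWTR1 span 0 throughout.

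The 6 knockdown libraries were all above the 3 controls for 3 of the 9 tested genes (CCN1, ANKRD1 and AMOTL2), against 4.69% of all genes tested, and all below them for none, against 0.685%. After nuclear scaling the same 3 genes did not overlap, against 4.57% of all genes. The median log2 fold change of the 9 genes in the mean of both arms was 0.33, and that of all genes tested was 0.10. With nuclear scaling these medians were 0.23 and 0.01. Relative to the median of all genes, CCN1 was higher by 0.92 and ANKRD1 by 1.07 in the mean of both arms, and YAP1 stood at -0.12.

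Nuclear scaling kept the calls of CCN1 (0.90, limma adjusted p = 0.028) and ANKRD1 (1.05, limma adjusted p = 0.0033) in the mean of both arms, where 1.65% of all genes were called. In shzmat2-1 it lowered them to 0.68 (limma adjusted p = 0.20) and 0.67 (limma adjusted p = 0.091), with 0.489% of all genes called. It moved the median of all genes by -0.19 in shzmat2-1 and by less than 0.1 in the other arm. In that arm, where 1.47% of all genes were called, it left CCN1 at 1.13 (limma adjusted p = 0.018) and ANKRD1 at 1.44 (limma adjusted p = 0.0013).

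Libraries of like mitochondrial share can be set side by side without scaling: control replicates 1 and 3 and shzmat2-1 replicates 1 and 3, at 7.70% to 8.28%. With 2 libraries on each side this is a description without a test. Both shzmat2-1 libraries exceeded both controls for CCN1 (ratio of means 1.68), ANKRD1 (1.65), AMOTL2 (1.30) and CCN2 (1.14). They lay below both controls for YAP1 (0.789), TEAD1 (0.819), WWTR1 (0.836) and LATS2 (0.907), and AJUBA overlapped (1.01). CCN1, ANKRD1, AMOTL2 and CCN2 thus stood above the controls in these libraries, and the target LATS2 and both coactivators below. The share of all genes that lie fully above or below the controls here was not counted. The split is therefore not read as particular to these genes.

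A ratio of 2 genes within a library does not depend on its scaling. YAP1 was taken as the denominator after its values were seen, and the ratios carry no test. CCN1 per YAP1 was 0.875 to 1.37 in the control, 1.69 to 2.08 in shzmat2-1 and 2.03 to 3.09 in shzmat2-2. ANKRD1 per YAP1 was 1.13 to 1.42 in the control, 1.97 to 2.52 in shzmat2-1 and 3.00 to 4.09 in shzmat2-2. Neither ratio overlapped between control and knockdown. How many of all genes would separate the groups in a ratio to YAP1 was not counted. These ratios and those that follow therefore describe only the genes shown.

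AMOTL2 per YAP1 was 0.947 to 1.06 in the control, 1.45 to 1.62 in shzmat2-1 and 1.45 to 2.18 in shzmat2-2. CCN2 per YAP1 was 4.31 to 5.13 in the control, 5.19 to 6.86 in shzmat2-1 and 6.02 to 8.96 in shzmat2-2. Again control and knockdown did not overlap, though for CCN2 the margin was small. LATS2 per YAP1 overlapped between control and shzmat2-1, at 0.282 to 0.336 in the control, 0.326 to 0.392 in shzmat2-1 and 0.385 to 0.524 in shzmat2-2. AJUBA per YAP1 also overlapped, at 1.39 to 1.63 in the control, 1.33 to 2.04 in shzmat2-1 and 1.51 to 2.10 in shzmat2-2.

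**Figure D4:**
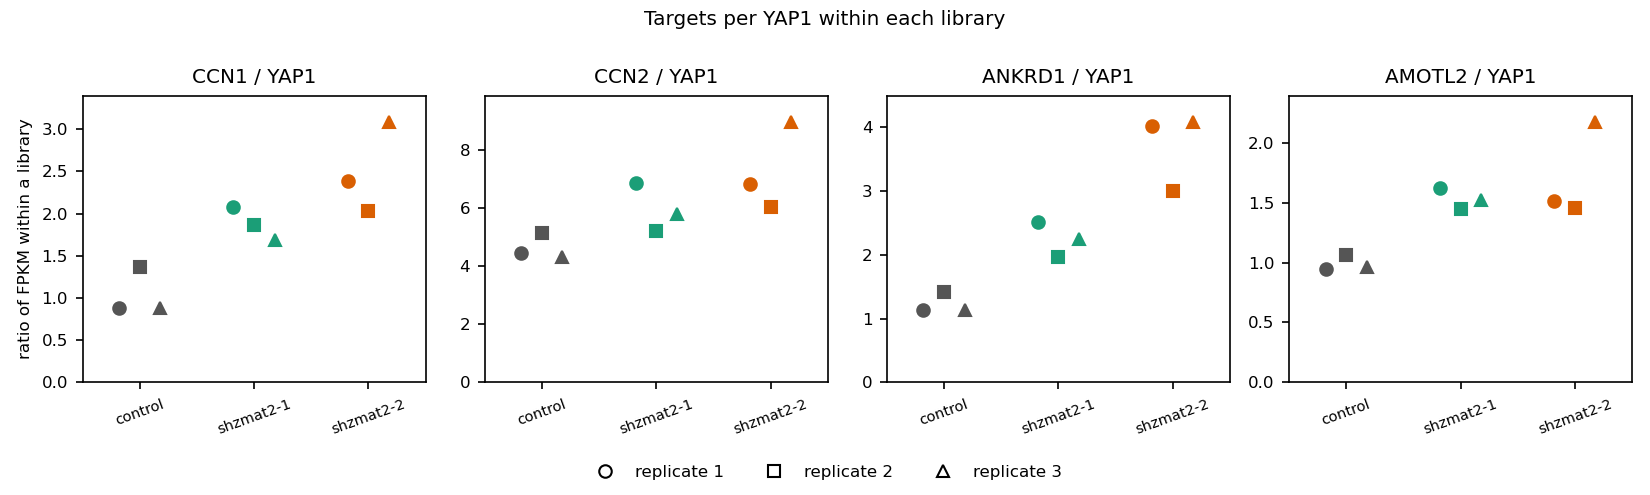
Ratio of FPKM of CCN1, CCN2, ANKRD1 and AMOTL2 to that of YAP1 within each library (vertical axes from 0, symbols are replicates, colours are groups). All knockdown points lie above all control points in the 4 panels, widely for ANKRD1 and narrowly for CCN2 (5.13 against 5.19). The share of all genes that would do so was not counted.

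Between the arms, the estimate of the remaining ZMAT2 level was higher in shzmat2-2 by 0.59 on the log2 scale (95% interval 0.20 to 0.97). This difference was not called (limma adjusted p = 0.66), and its relation to the YAP and TEAD genes was not tested. None of the 9 genes was called between shzmat2-2 and shzmat2-1 by limma, as for all genes (0%), and 1, ANKRD1, had an unadjusted p under 0.05, which 4.14% of all genes had. ANKRD1 was higher in shzmat2-2 by 0.52 on the log2 scale (95% interval 0.02 to 1.01, limma adjusted p = 0.66). For CCN1 the difference was 0.21 (95% interval -0.24 to 0.65, limma adjusted p = 0.68). For AMOTL2 it was -0.05 (95% interval -0.62 to 0.53), and nuclear scaling, which moves the median of all genes by 0.20 in this comparison, turned it to 0.20. It also moved ANKRD1 to 0.77 (95% interval 0.46 to 1.08) and CCN1 to 0.45 (95% interval 0.04 to 0.87), with none called by limma and 3 of the 9 at an unadjusted p under 0.05 (ANKRD1, CCN1 and CCN2), against 10.3% of all genes.

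Further published YAP/TAZ targets, in a list that leaves out the genes above, numbered 16, of which 13 were tested and FOXF2, FJX1 and RBMS3 were below the minimum. Averaged over both arms, 12 of the 13 had a higher estimate, 2 were called higher and 0 lower. The median of the list was 0.50, against 0.10 for all genes, and 71.8% of all genes had a higher estimate. In shzmat2-2 the same 2 were called, and in shzmat2-1 none by limma, with 5 at an unadjusted p under 0.05 (4 higher and 1 lower). The shares over all genes were 0.542% called in the mean of both arms, 0.587% in shzmat2-2, 0.08% in shzmat2-1 and 5.76% at an unadjusted p in shzmat2-1. Without CCDC80, which was below 1 FPKM in all controls, 11 of 12 had a higher estimate, 1 was called and the median was 0.49. After nuclear scaling 3 of the 13 were called in the mean of both arms (with NUAK2), 4 in shzmat2-2 (with NUAK2 and MYOF) and 1 in shzmat2-1 (IGFBP3), against 1.65%, 1.47% and 0.489% of all genes. Without CCDC80 these counts were 2, 3 and 1 of 12. MYOF was also low in the control, at 0.63 to 1.22 FPKM as deposited.

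IGFBP3, a secreted binding protein of insulin-like growth factors, had 3.79, 2.23 and 4.13 FPKM in the control. It had 8.05, 7.65 and 7.80 FPKM in shzmat2-1 and 9.09, 10.2 and 10.3 FPKM in shzmat2-2. The knockdown libraries did not overlap the controls, and IGFBP3 rose by a log2 fold change of 1.19 in the mean of both arms (limma adjusted p = 0.014).

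CCDC80, a protein of the extracellular matrix, rose from a control mean of 0.300 ± 0.0903 FPKM to 1.01 ± 0.116 for shzmat2-1 and 1.63 ± 0.187 for shzmat2-2 (SD, n = 3 each). Its log2 fold change in the mean of both arms was 0.82 (limma adjusted p = 0.010), and all 6 knockdown libraries were above the controls. CCDC80 could be tested only because its knockdown libraries were high. With 1 library left out, CCDC80 was called in 7 of 9 fits and missed the threshold without control replicate 1 or 3 (limma adjusted p = 0.056 and 0.059). IGFBP3 was called in 3 of 9 fits, those without control replicate 2, shzmat2-1 replicate 2 or shzmat2-2 replicate 1, and its adjusted p by limma reached 0.065 without control replicate 1.

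Outside the rule for named genes, 2 more of the list were chosen after their values were seen. NUAK2, a kinase of the AMPK family, had means of 3.12 ± 0.918, 5.91 ± 0.404 and 6.73 ± 1.23 FPKM in control, shzmat2-1 and shzmat2-2 (SD, n = 3 each), with a log2 fold change of 0.85 in the mean of both arms (limma adjusted p = 0.084). NT5E, the ecto-5′-nucleotidase CD73, went the other way, with 14.0 ± 1.25, 7.40 ± 1.91 and 9.42 ± 0.773 FPKM in the same order and a log2 fold change of -0.69 (limma adjusted p = 0.16). For both genes the knockdown libraries did not overlap the controls, while the arms overlapped each other. Neither was called on the deposited values, but NUAK2 was called after nuclear scaling (0.76, limma adjusted p = 0.015) and in 4 other settings, and NT5E in 2 settings, those with the mitochondrial covariate and without control replicate 2 and shzmat2-1 replicate 2.

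Of 27 kinases and upstream regulators of the Hippo pathway 26 were tested, WTIP being below the minimum. In the mean of both arms 19 had a higher and 7 a lower estimate, none was called by limma, and 2 had an unadjusted p under 0.05, which 6.93% of all genes had. The median was 0.11, next to 0.10 for all genes. The smallest p were those of AMOT, WWC1 and STRN4. AMOT, an angiomotin that holds YAP1 in the cytoplasm, had means of 0.482 ± 0.0530, 0.971 ± 0.270 and 1.37 ± 0.225 FPKM in control, shzmat2-1 and shzmat2-2 (SD, n = 3 each), and a log2 fold change of 0.54 (limma adjusted p = 0.11). AMOT was below 1 FPKM in all controls and was tested only through its knockdown libraries; without it the median of the list was 0.10. WWC1, the upstream regulator KIBRA and itself a YAP target, had 6.40 ± 1.36, 10.4 ± 0.792 and 11.4 ± 0.894 FPKM in that order and a log2 fold change of 0.70 (limma adjusted p = 0.13). STRN4, a subunit of the STRIPAK phosphatase complex, had a log2 fold change of 0.35 (limma adjusted p = 0.94).

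Of a list of 7 TEAD genes and cofactors, 6 were in the table. TEAD2, TEAD3, TEAD4 and VGLL4, a cofactor that competes with YAP1 for TEAD, were tested. None was called by limma, where 0.542% of all genes were called in the mean of both arms. Outside the rule for named genes, TEAD2 is given as the only one with a lower estimate there (log2 fold change -0.12). Its means were 18.3, 18.9 and 14.9 FPKM in control, shzmat2-1 and shzmat2-2. TEAD3 had 9.98, 14.6 and 13.5 FPKM as means of control, shzmat2-1 and shzmat2-2 (log2 fold change 0.48, limma adjusted p = 0.54). It was the only one of the 4 with an unadjusted p under 0.05 in the mean of both arms, which 6.93% of all genes had. TEAD4 had means of 12.5, 17.6 and 14.3 FPKM in that order (log2 fold change 0.35, limma adjusted p = 0.97). VGLL4 had means of 3.53, 3.32 and 4.64 FPKM (log2 fold change 0.13, limma adjusted p = 1.0). VGLL2 and VGLL3 were below the minimum for a test, and VGLL1 was not matched. VGLL3 was very low, with means of 0.0464, 0.238 and 0.422 FPKM, and its knockdown libraries were all above the controls (highest control 0.0686, lowest knockdown 0.1345 FPKM). The share of all genes at such levels that do so was not counted. Of the other CCN genes, CCN3, CCN4 and CCN6 were all below the minimum of 1 FPKM, and CCN5 was not matched.

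**Figure D5:**
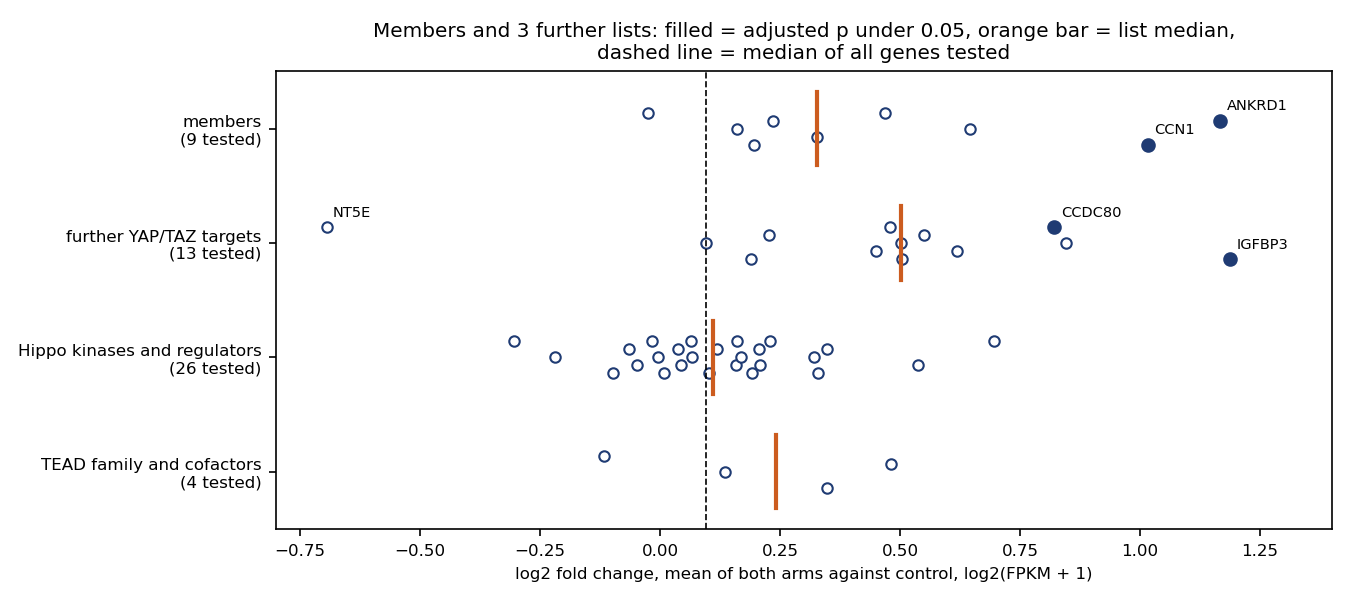
Log2 fold change of the averaged arms against control (horizontal axis, log2(FPKM + 1) scale) for the YAP and TEAD genes and 3 further lists, with 1 point a gene, filled points for an adjusted p under 0.05, an orange bar at the median of each list and a dashed line at the median of all genes tested. The filled points are CCN1, ANKRD1, IGFBP3 and CCDC80, and the Hippo regulators centre on 0.11, next to 0.10 for all genes.

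The 8 markers of fibroblast and stellate cells summed to 2.08 to 4.43 FPKM in the control, 3.99 to 5.18 in shzmat2-1 and 2.37 to 3.69 in shzmat2-2. Of the 8, 2 were tested, COL1A2 and PDGFRB. COL1A2 had means of 1.14, 1.94 and 0.826 FPKM in control, shzmat2-1 and shzmat2-2. PDGFRB went down, with means of 1.23, 0.927 and 0.789 FPKM in that order. Its log2 fold change after nuclear scaling was -0.30 in the mean of both arms (limma adjusted p = 0.39). PDGFRA had means of 0.638, 0.899 and 0.621 FPKM. The highest value of any marker was 2.31 FPKM (COL1A2). DCN, a defining marker, was at or near 0 in all libraries. LUM, another, was higher in all 6 knockdown libraries, with means of 0.077, 0.227 and 0.267 FPKM in control, shzmat2-1 and shzmat2-2, by a small margin (highest control 0.175, lowest knockdown 0.177 FPKM) and below the minimum for a test, and COL3A1 had means of 0.382, 0.434 and 0.476 FPKM. After nuclear scaling the 8 markers summed to 3.29 to 3.95 in the control, 3.93 to 4.39 in shzmat2-1 and 2.90 to 3.85 in shzmat2-2.

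The 4 matched endothelial markers summed to 1.04 to 1.70 FPKM in the control, 1.02 to 1.14 in shzmat2-1 and 0.695 to 0.745 in shzmat2-2, nearly all of it PECAM1. PECAM1 was not called on the deposited values and was called lower after nuclear scaling (-0.45 in the mean of both arms, limma adjusted p = 0.031). The leukocyte markers summed to 2.56 to 5.81 FPKM in the control, 4.54 to 8.82 in shzmat2-1 and 3.97 to 7.14 in shzmat2-2, nearly all of it CD14, which was not called. The part of these cell types in the results was not tested.

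Across the 9 libraries, the genes whose log2(FPKM + 1) followed CCN1 most closely, of 6369 protein-coding genes with at least 5 FPKM in the mean of a group, were TPM1 (r = 0.99), MYH9 (r = 0.99), CXCL1 (r = 0.99), DUSP8 (r = 0.98) and IGFBP3 (r = 0.98), where the median gene had 0.29. TPM1, DUSP8 and IGFBP3 reached that level only in the knockdown groups where they are high, with control means of 3.33, 3.33 and 3.38 FPKM, so the minimum favours genes that are high there. TPM1 encodes a tropomyosin and MYH9 the heavy chain of nonmuscle myosin, both of the actin cytoskeleton. Among the YAP and TEAD genes r with CCN1 was 0.96 for ANKRD1, 0.88 for AMOTL2 and 0.83 for CCN2, and 0.14 for YAP1. CCN2 was followed most closely by GLTP (r = 0.99) and HSPB8, WSB2, PIP4K2C and TNFRSF21 (r = 0.98 each), where the median gene had 0.63, and by AMOTL2 with r = 0.97. These r describe 9 libraries that share groups, scaling and mitochondrial share.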

How the data were processed

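RNA from 9 Huh7 libraries was measured. The deposited values are FPKM per gene. Per the submitters' processing notes, HISAT, featureCounts and DESeq2 were used, with no version, and the genome build and annotation are not given in the sources used here. Gene coordinates are copied from the deposited table, and GENCODE release 29 holds 25089 of the gene IDs. Promoters come from RefSeq (GRCh38.p14), matched by symbol. Depth was recovered from 826 to 960 deposited FPKM values of single-exon genes per library, of which 99.9% to 100% were whole within 0.1 fragments. Whole reads were not recovered for the other genes, so no count test was run.

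The model was limma 3.58.1 (trend, R 4.3.3) on log2(FPKM + 1) of all 9 libraries with the group as the only term, over genes reaching 1 FPKM in 3 or more libraries. Tests are two-sided, adjusted by Benjamini-Hochberg over all genes tested. The pathway genes, the lists, the alternatives and the naming rule were chosen with earlier results of these data known. The rule takes every YAP and TEAD gene, then from each further list the genes called, or otherwise the 3 with the smallest p in the mean of both arms, and the 5 genes most correlated with CCN1 and with CCN2. On simulated data for the mean of both arms, with 200 of 11245 genes changed and 20 draws, 7.4% of the genes were recovered at a log2 change of 0.5, against 59.5% for 1, 91.2% for 2 and 98.5% for 3, and a draw held 6.75 false calls on average. The simulated noise was drawn for each gene on its own, without a shift shared by a whole library like that of control replicate 2. The simulated rates therefore need not hold for these data. Replicate columns were never identical, and the closest replicates differed beyond sampling noise. Python 3.11.15, numpy 2.4.6 and pandas 2.3.3 prepared the values, and matplotlib 3.10.9 drew them.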

Additional observations from a re-analysis of the deposited data

How the results depend on the processing

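The positive estimates of CCN1, ANKRD1, AMOTL2 and CCN2 against the control kept their sign in every setting run, with ranges for the mean of both arms of 0.86 to 1.15, 0.94 to 1.29, 0.35 to 0.79 and 0.21 to 0.63. The number of the 9 YAP and TEAD genes called moved. For the mean of both arms (2 called) it was 1 with no filter, 0 with TPM, 3 with median-of-ratios scaling (with AMOTL2), 4 with the mitochondrial covariate (with AMOTL2 and CCN2) and 0 to 2 with 1 library left out. For shzmat2-1 (0 called) it was 1 with median-of-ratios scaling, 2 with the mitochondrial covariate, 1 without control replicate 2 and shzmat2-1 replicate 2 together, and 0 to 0 with 1 library left out. For shzmat2-2 (2 called) it was 1 with a filter of 5 FPKM, 0 with TPM, 0 with only the groups compared, 4 with the mitochondrial covariate and 0 to 2 with 1 library left out. Between the arms (0 called) it was 3 without both replicates 2 (ANKRD1, WWTR1 and TEAD1). With the replicate block 1 gene, ANKRD1, was called in the mean of both arms and in shzmat2-2. Whether equal replicate numbers pair the libraries could not be told. Correlations of deviations were -0.763 to 0.777 for equal numbers, with 6 of 9 over 0.1. For different numbers they were -0.772 to 0.808, with 8 of 18 over 0.1. The causes of these moves were not tested.

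Estimates near 0 changed sign. For the mean of both arms, YAP1 was 0.080 with TPM, and without both replicates 2 AJUBA was -0.17, TEAD1 -0.028 and VGLL4 -0.066. In shzmat2-1, YAP1, WWTR1 and TEAD1 were -0.12, -0.065 and -0.058 under median-of-ratios scaling, -0.16, -0.033 and -0.051 after quantile normalization, -0.17, -0.084 and -0.096 with nuclear scaling, and -0.33, -0.15 and -0.26 without both replicates 2, where LATS2 was -0.12. YAP1 was -0.088 there with the mitochondrial covariate. In shzmat2-2, AJUBA was -0.026 with median-of-ratios scaling and -0.35 without both replicates 2, and YAP1 was 0.0017 with the covariate. Between the arms, CCN1 was -0.018 with TPM, and AMOTL2 was 0.073, 0.16, 0.20 and 0.20 under median-of-ratios, quantile, the covariate and nuclear scaling.

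With 1 library left out, the estimates that changed sign ranged as follows. For the mean of both arms AJUBA spanned -0.23 to 0.39, YAP1 -0.35 to 0.15 and VGLL4 -0.017 to 0.23. In shzmat2-1 AJUBA spanned -0.11 to 0.51, YAP1 -0.26 to 0.24, WWTR1 -0.11 to 0.17 and TEAD1 -0.098 to 0.27. In shzmat2-2 AJUBA spanned -0.35 to 0.28 and YAP1 -0.44 to 0.066. Between the arms AMOTL2 spanned -0.14 to 0.11.

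Over all genes, the mean of both arms called 61 (51 higher), against 25 with a filter of 5 FPKM, 1 with TPM, 210 (140 higher) under median-of-ratios scaling, 209 (146 higher) under quantile normalization, 186 (132 higher) with nuclear scaling, 1096 with the covariate, 143 (75 higher) without control replicate 2 and 454 (198 higher) without both replicates 2. Depth limits AXL, at 11 fragments in all. The fit with only the groups compared gives no separate value for the mean of both arms.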
